A study of Saccharomyces cerevisiae with 103 samples.

Results

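The comparison described here is the late end of yeast sporulation, 9 h against 7 h after transfer to sporulation medium. It rests on 8 of the 103 libraries of the study, chosen by their labelled hour: 4 of the 50 RNA-seq libraries and 4 of the 50 poly(A) tag libraries, with 2 replicate libraries per hour and assay. The 4 libraries of 8 h are shown as the point between. All of them came from wild-type cells of the SK1 strain, a background that sporulates fast and synchronously. The cells were grown in YPD, then in the pre-sporulation medium BYTA, washed, and moved to sporulation medium (SPO); no drug or inducer is labelled for them. The study followed poly(A) tails and RNA levels through meiosis and also holds return to growth, deletion, degron and overexpression experiments, which are not analysed here. The labels do not say whether the replicates of an hour came from separate cultures, so the p-values below measure the spread between these libraries, which may be technical.

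Sporulation turns 1 diploid cell into a tetrad of haploid spores. Early meiotic genes, switched on by Ime1 through Ume6 at URS1 elements, serve recombination. Ndt80 then activates the middle genes through middle sporulation elements (MSEs), driving the meiotic divisions and the prospore membranes that grow around each nucleus. The spore wall is laid down last, from the inside out, as mannan, glucan, chitosan and dityrosine layers, and the spore becomes a dormant, stress-resistant cell.

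RNA-seq totals were 2532384 and 2652327 counts at 7 h, 1563993 and 2659986 at 8 h, and 364038 and 693399 at 9 h, so the 9 h values carry the larger counting error. Tag libraries held 123185 and 258150 tags at 7 h and 71930 and 184253 at 9 h. Levels below are CPM (counts scaled to a common library total); they use TMM factors, a method that assumes that most genes do not change, and are shares of a library. In bulk samples, fewer cells of a type and less RNA per cell cannot be told apart. Of the late spore markers, DIT1, DIT2, SPS4, CDA1, CDA2, LDS1 and LDS2 were present in all 4 RNA-seq libraries of 7 h and 9 h. SPS100, another late marker, was low, with a mean of 38.6 CPM at 0 h, 6.14 CPM at 7 h and 14.3 CPM at 9 h. Its log2 change of 1.14 from 7 h to 9 h did not pass (edgeR adjusted p = 0.11). The 10 vegetative cell cycle genes summed to 245 and 281 CPM at 7 h and 146 and 180 CPM at 9 h, and the 19 haploid and mating genes to 964 and 1080 CPM and 709 and 769 CPM. HXT1, a glucose transporter of growing cells, was at 2.9 and 4.0 CPM at 7 h and 0.0 and 6.0 CPM at 9 h.

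RNA levels moved widely over these hours. Of 6269 genes tested, 726 (11.6%) rose and 1126 (18.0%) fell from 7 h to 9 h at an adjusted p under 0.05 (edgeR quasi-likelihood test over all 20 libraries of the time course, Benjamini-Hochberg adjustment, n = 2 per hour). The median change was 0.77 on the log2 scale among the genes that rose and −0.80 among those that fell, and −0.093 over all genes tested. Most changes were moderate: 166 genes rose and 298 fell by more than 1 log2 unit, and 5 rose and 10 fell by more than 2. The count of calls depended on each library: leaving out 1 in turn left 352 to 685 genes that rose and 644 to 1141 that fell. Scaling by library size alone, without TMM, moved the median of all genes to 0.218 and the split became 1481 higher and 464 lower.

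The change was already under way at 8 h. Between 7 h and 8 h, 444 genes (7.08%) rose and 472 (7.53%) fell (edgeR, adjusted p under 0.05). These counts depended on the scaling and on single libraries. Under library sizes alone, 792 rose and 113 fell. Far fewer passed in either direction without replicate 2 of 7 h, while leaving out the other 7 h library changed the counts little. The number of genes changed by 8 h is therefore uncertain. The mean at 8 h lay between those of 7 h and 9 h for 684 of the 726 genes that rose and for 1109 of the 1126 that fell. At 8 h the genes that rose had made a median of 64.2% of their change, and the genes that fell 50.3%. These are descriptions of genes chosen by their change from 7 h to 9 h. That choice favours an 8 h mean between the other means, and both changes share the 7 h libraries. From 8 h to 9 h alone, 2 genes rose (0.0319%), DPC7 and PPN1, a polyphosphatase, and 3 fell (0.0479%), GDH1, HHO1 and QRI1, all named here because they were so few. DESeq2 called 5 and 16 for that step, and 805 genes had an unadjusted p under 0.05 in edgeR.

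**Figure D1:**
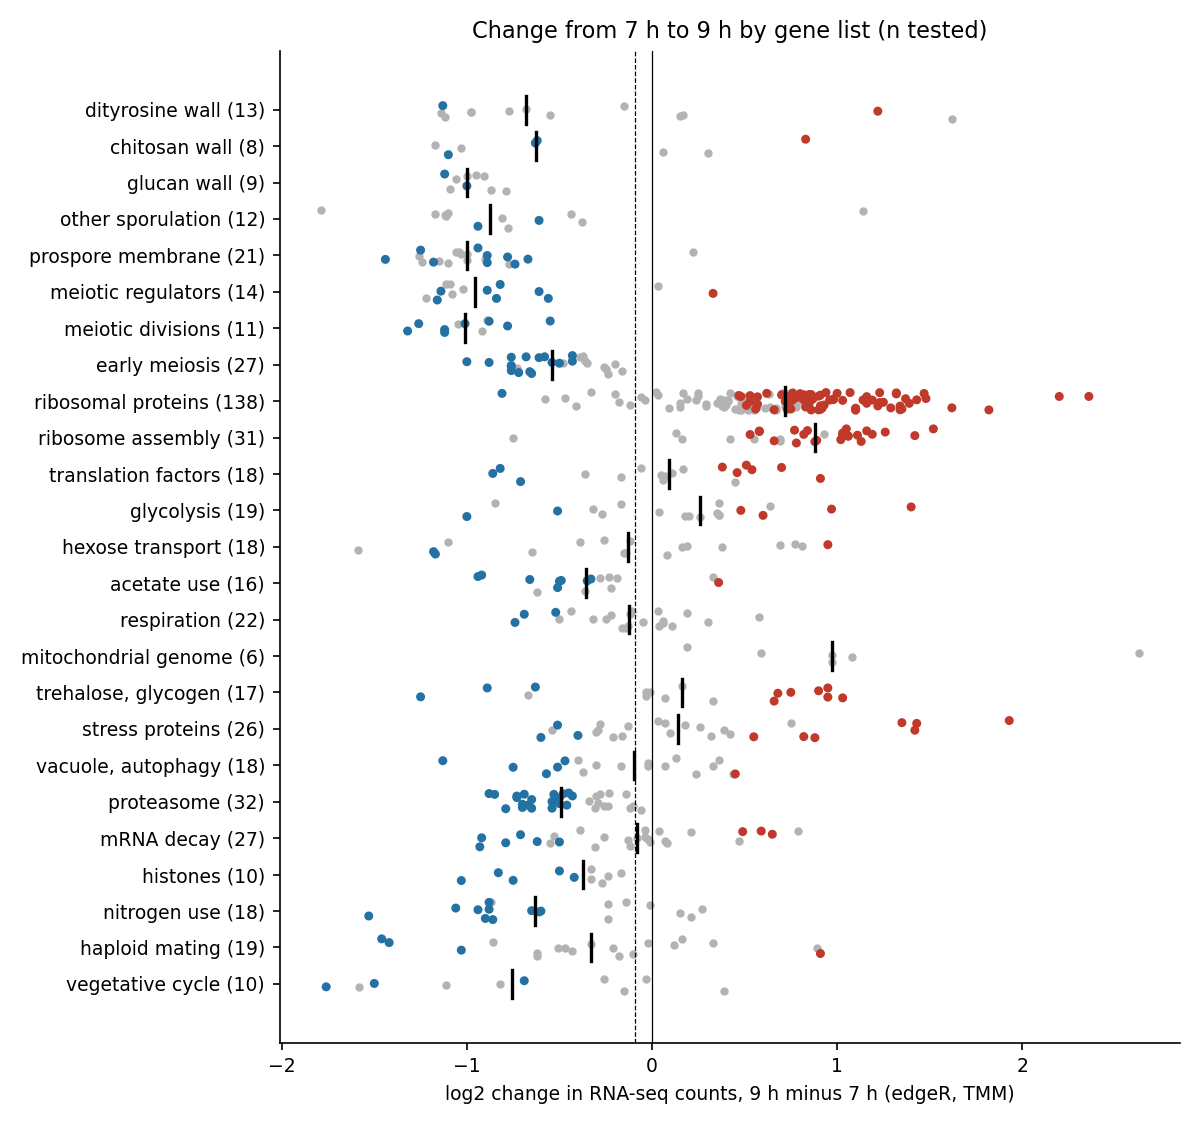
Log2 change in RNA-seq counts from 7 h to 9 h (x axis) for the tested genes of 25 lists (y axis, number tested in brackets); each point is a gene, red or blue where it rose or fell at an adjusted p under 0.05 and grey otherwise. Thick ticks are list medians and the dashed line is the median of all genes, −0.093: the ribosome lists sit to its right and the sporulation, early meiosis, proteasome and nitrogen lists to its left.

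The 2 dityrosine synthesis genes of the outermost spore wall layer were higher at 9 h than at 7 h. DIT1 and DIT2 encode the enzymes that make the dityrosine precursor and are neighbours on chromosome IV (chrIV:1274602-1276212, plus strand, and chrIV:1272234-1273703, minus strand; sacCer3 coordinates, each 1 coding exon), read away from each other across 898 bases. DIT1 was at 258 and 143 CPM at 6 h, 5138 and 3427 CPM at 7 h, 10380 and 9143 CPM at 8 h, and 13130 and 13230 CPM at 9 h. Both 9 h libraries thus lay above both of 7 h, with 8 h between. The DIT1 change was 1.62 ± 0.71 on the log2 scale (SE) and did not pass in the 20-library fit (edgeR adjusted p = 0.117). Its replicates differed by 2.12 log2 units at 4 h, which enters the spread of that fit. With the 4 libraries of 7 h and 9 h alone the change was 1.72 ± 0.16 (edgeR adjusted p = 3.64e-06); over 12 alternatives the adjusted p ran from 3.64e-06 to 0.379, and 3 passed.

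DIT1 tags, counted in other libraries, rose from 38 and 146 to 201 and 373, a log2 change of 2.29 ± 0.33 (edgeR adjusted p = 3.84e-06). DIT2 was at 860 and 467 CPM at 7 h and 1761 and 1346 CPM at 9 h. The groups did not overlap, and the rise of 1.22 ± 0.41 passed narrowly (edgeR adjusted p = 0.0473). That call was lost without replicate 2 of 7 h and without either replicate of 9 h, and passed in 5 of 12 alternatives, whose adjusted p ran from 7.83e-06 to 0.268.

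Not all genes tied to the dityrosine layer moved with DIT1. Calls over all tested genes were 11.6% higher and 18.0% lower. Of the 13 on the list, 1 rose (DIT2) and 1 fell, MUM3, a gene needed for outer wall formation, by −1.13 ± 0.26 (edgeR adjusted p = 0.00552), with a list median of −0.68. MUM3 was not called without replicate 2 of 9 h, which left 0 members falling. The MUM3 level was 397 and 408 CPM at 7 h and 199 and 173 CPM at 9 h. Both 9 h libraries lay above both of 7 h for 4 members and below for 8, where 26.6% and 38.5% of all tested genes did so. In the fit of the 4 libraries alone, 1 member rose and 8 fell; that fit called 15.4% of 5960 genes higher and 15.9% lower. LDS1, a lipid droplet protein that promotes dityrosine wall assembly, was at 1482 and 1635 CPM at 7 h and 651 and 775 CPM at 9 h, and its change of −1.12 ± 0.78 did not pass in the 20-library fit (edgeR adjusted p = 0.322).

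Genes of the chitosan layer, made from chitin by the deacetylases Cda1 and Cda2, likewise moved in both directions. The shares over all tested genes were 11.6% higher and 18.0% lower. SHC1, the activator of chitin synthase III used in sporulation, rose from 709 and 598 CPM at 7 h, over 955 and 943 CPM, to 1129 and 1198 CPM at 9 h. All 3 hours were separate, and the log2 change was 0.83 ± 0.14 (edgeR adjusted p = 0.000115). The synthase itself went the other way. CHS3, its catalytic subunit, fell by −0.63 ± 0.14 (edgeR adjusted p = 0.00135) from 407 and 508 CPM to 262 and 323 CPM. CHS7, needed to export Chs3 from the endoplasmic reticulum, fell by −0.62 ± 0.18 and CHS6, needed to carry it to the surface, by −1.10 ± 0.25; CHS6 was not called without replicate 2 of 9 h. CDA2 was at 2353 and 2971 CPM at 7 h, 1504 and 2064 CPM at 8 h and 1004 and 1349 CPM at 9 h, lower in both 9 h libraries, and did not pass (−1.17 ± 0.80, edgeR adjusted p = 0.31), nor did CDA1 (−1.03 ± 0.63, edgeR adjusted p = 0.258). In all, 1 of 8 chitosan genes rose and 3 fell, with a median of −0.62; 1 fell without replicate 2 of 9 h and 1 under library sizes alone.

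**Figure D2:**
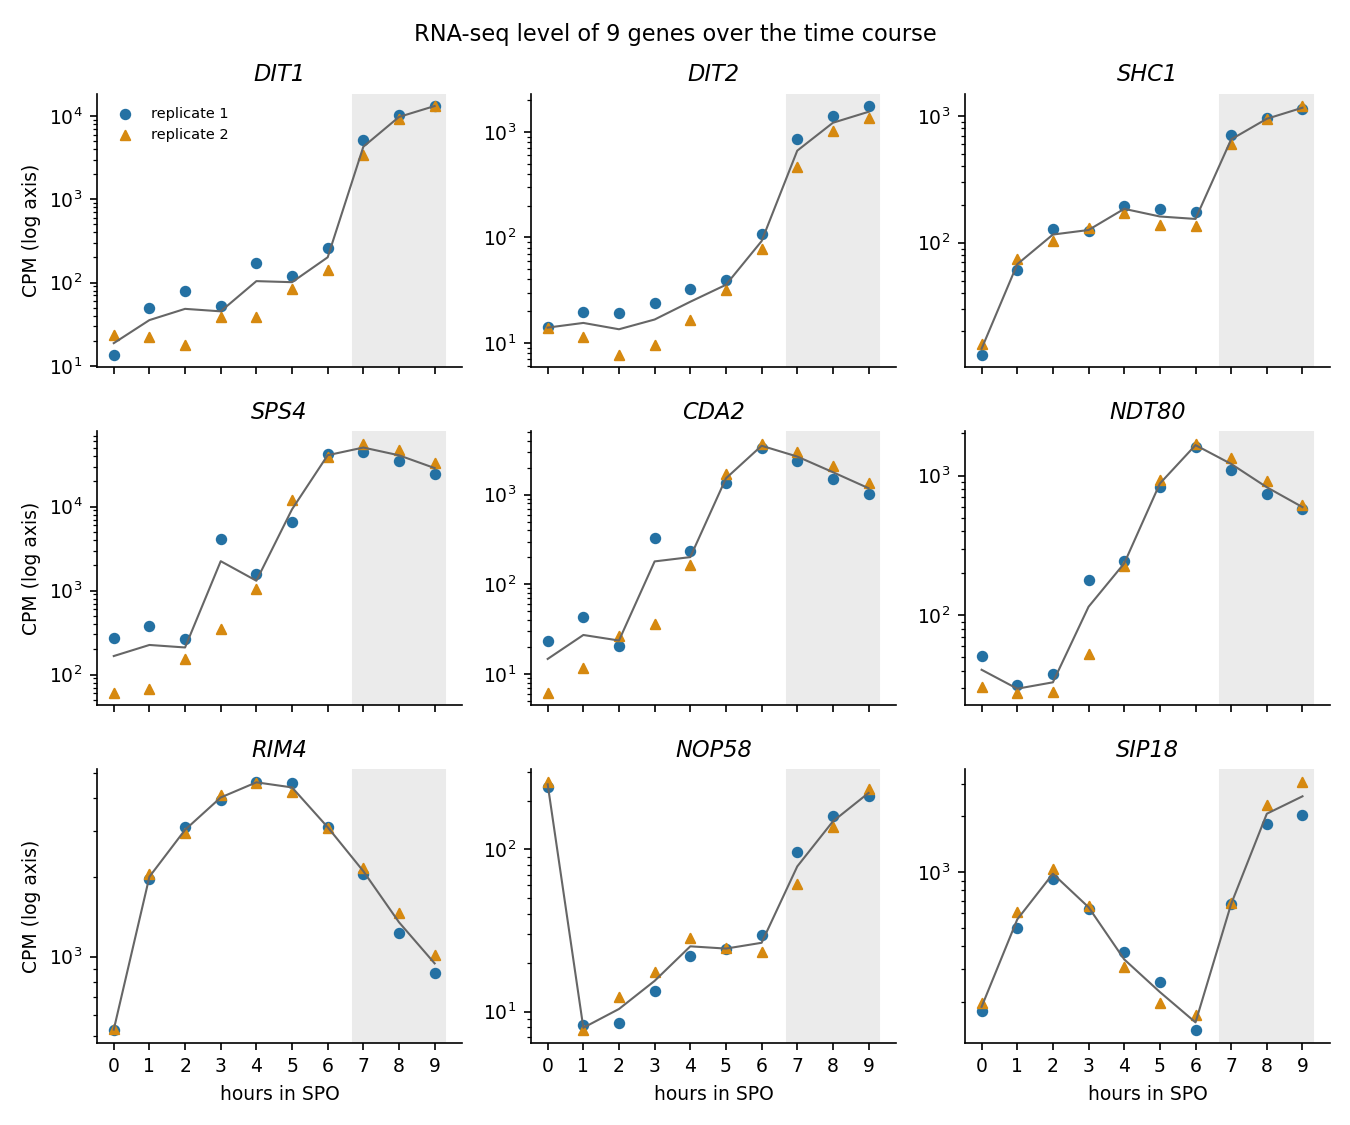
RNA-seq level in CPM (y axis, log scale) of 9 genes at each hour in SPO (x axis); circles are replicate 1, triangles replicate 2, the line joins the means, and 7 h to 9 h is shaded. DIT1, DIT2 and SHC1 have their highest mean at 9 h, SPS4 and CDA2 lie lower at 9 h than at 7 h, and the replicates of SPS4, CDA2 and NDT80 part at 3 h.

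Genes that build the inner wall and the prospore membrane were lower at 9 h almost without exception. GSC2, a glucan synthase catalytic subunit, fell from 2944 and 3560 CPM at 7 h to 2017 and 2483 CPM at 8 h and 1440 and 1803 CPM at 9 h. The hours did not overlap, and the log2 change of −1.0 ± 0.14 (edgeR adjusted p = 9.02e-06) had a counterpart in the tags, from 727 and 1377 to 138 and 387 (−1.64 ± 0.30, edgeR adjusted p = 0.000299). FKS3, its sporulation relative, fell by −1.12 ± 0.17. These 2 were the glucan genes that passed, of 9 with a median of −1.0, while all 9 had both 9 h libraries below both of 7 h. Over all tested genes 18.0% fell, and 38.5% had both 9 h libraries below both of 7 h. Of 21 prospore membrane genes 9 fell, again with a median of −1.0, and 20 had both 9 h libraries lower. SPO75, required for sporulation, fell from 295 and 382 CPM to 96.6 and 144 CPM, by −1.44 ± 0.22 (edgeR adjusted p = 0.000117). MPC54, a component of the meiotic outer plaque from which the membrane grows, fell by −1.25 ± 0.15, and SPO14, the phospholipase D needed for membrane fusion, by −1.18 ± 0.17.

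The number of such calls rested on 3 h, an hour outside the comparison. The 41 prospore membrane, division and glucan genes had a median gap between replicates of 1.25 log2 units at 3 h, against 0.16 for all genes, and of 0.25 at 7 h and 0.21 at 9 h. With 3 h left out, a choice made after the data were seen, 17 prospore membrane, 6 glucan and 11 of 11 division genes fell, and 716 genes (11.4%) rose and 1246 (19.9%) fell overall. With the 4 libraries alone, 20, 9 and 10 of them fell. The 20-library and 4-library fits shared 1539 calls out of 1852 and 1867, none in opposite directions.

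Division genes and regulators of the middle phase followed the same course. Of 11 division genes 8 fell, with a median of −1.01. All 11 had both 9 h libraries below both of 7 h, against 38.5% of all tested genes. CLB6, an S-phase cyclin, fell from 191 and 230 CPM to 71.8 and 91.7 CPM (−1.32 ± 0.31, edgeR adjusted p = 0.0055), and CLB4, an M-phase cyclin, from 376 and 539 CPM to 166 and 210 CPM (−1.26 ± 0.35, edgeR adjusted p = 0.0214). Without either replicate of 9 h neither was called, and CLB4 was not called without replicate 2 of 7 h. The division count was 9 without replicate 1 of 7 h, 4 without replicate 2 of 7 h, 4 without replicate 1 of 9 h and 3 without its replicate 2. NDT80, the master activator of middle genes, was at 1094 and 1327 CPM at 7 h, 736 and 912 CPM at 8 h and 571 and 618 CPM at 9 h, down from 1608 and 1687 CPM at 6 h. The hours did not overlap, yet its change of −1.02 ± 0.42 did not pass (edgeR adjusted p = 0.0955; 1.82e-05 to 0.29 over 12 alternatives, of which 4 passed).

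Of 14 meiotic regulators 7 fell and 1 rose (median −0.96); 4 fell without replicate 2 of 9 h. Among all tested genes 18.0% fell and 11.6% rose. RIM4, an RNA-binding protein that holds back translation of meiotic mRNAs, fell. It was at 2050 and 2175 CPM at 7 h, 1229 and 1469 CPM at 8 h and 867 and 1017 CPM at 9 h. It was lower at each hour, by −1.16 ± 0.12 from 7 h to 9 h (edgeR adjusted p = 2.1e-07), and its tags fell too (−1.34 ± 0.36, edgeR adjusted p = 0.0247). IME2, the meiotic kinase, fell by −1.14 ± 0.13 in RNA-seq and by −1.31 ± 0.33 in tags (edgeR adjusted p = 8.69e-07 and 0.0131). AMA1, the meiotic activator of the anaphase-promoting complex, fell by −0.89 ± 0.24 and was not called without replicate 2 of 7 h or either replicate of 9 h. IME1, the starter of the programme, fell by −0.61 ± 0.16, a call lost without replicate 2 of 9 h. SUM1, the repressor that competes with Ndt80 for MSEs, rose slightly, from 250 and 213 CPM to 312 and 274 CPM (0.33 ± 0.12, edgeR adjusted p = 0.047), a call lost without replicate 2 of 7 h or either of 9 h. SMK1, the kinase of spore wall assembly, and CLB1, the main meiotic B-type cyclin, were at 794 and 923 CPM and 768 and 992 CPM at 7 h. At 9 h SMK1 was at 378 and 424 CPM and CLB1 at 389 and 454 CPM; neither passed (edgeR adjusted p = 0.16 and 0.0566).

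SPS4, a sporulation gene of unsettled function, was at 45100 and 56110 CPM at 7 h, 34700 and 47120 CPM at 8 h and 24190 and 33470 CPM at 9 h. The 9 h libraries were the lower pair, and its change of −0.81 ± 1.04 did not pass (edgeR adjusted p = 0.614, with 0.000215 to 0.808 over 12 alternatives, 2 of them passing). Its replicates stood 3.55 log2 units apart at 3 h. Of the 12 sporulation genes on this list 2 fell, YGP1 and SPO24, near the 18.0% of all tested genes that fell. On this list 0 rose (0 in DESeq2, 1 at an unadjusted p under 0.05 in edgeR), and the median was −0.88. YGP1 was not called without replicate 2 of 7 h or either replicate of 9 h, which left 1 falling. SPO24, a small sporulation protein, fell from 1804 and 2240 CPM to 1087 and 1017 CPM (−0.94 ± 0.13, edgeR adjusted p = 9.69e-06).

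Promoters of the prospore membrane list were searched for the element through which Ndt80 acts. MSE cores were searched as CACAAAA, or with T in place of the last base as CACAAAT, and likewise as CGCAAAA, or with T last as CGCAAAT, on both strands, from 250 bases before to 50 bases after each gene start in the S288C reference (sacCer3), which can differ from SK1. A match was found in 15 of 21 prospore membrane promoters (71.4%), 6 of 9 glucan promoters (66.7%) and 7 of 13 dityrosine promoters (53.8%), against 19.2% of 5733 promoters of tested genes. It was found in 26.6% of the promoters of genes that fell and 13.7% of those that rose. The core was not particular to sporulation lists. Respiration promoters held it in 10 of 22 (45.5%) and hexose transport promoters in 8 of 18 (44.4%), lists with median changes of −0.12 and −0.13. In the proteasome list, which fell, it was in 6 of 32 (18.8%). DIT1 and DIT2 held 0 matches in this window, which says only that these letters are not in it. The 3 windows of 60 bases below belong to the prospore membrane genes with the largest falls that hold a core at least 60 bases before the start (SPO75, MPC54 and ADY4, another outer plaque component, which fell by −0.94). They are shown because they hold the element searched for; capitals mark the core on either strand, and a match is a description, not a shown binding site.
SPO75 (chrXII:140624-140683, minus strand): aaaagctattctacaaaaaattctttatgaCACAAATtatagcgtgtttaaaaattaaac
MPC54 (chrXV:667370-667429, minus strand): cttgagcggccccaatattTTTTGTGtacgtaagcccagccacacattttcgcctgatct
ADY4 (chrXII:592233-592292, minus strand): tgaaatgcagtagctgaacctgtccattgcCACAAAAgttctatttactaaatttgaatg

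Early meiotic genes were lower at 9 h. Of 27 genes of recombination and chromosome pairing, 16 fell and 0 rose (median −0.54). For 25 of them both 9 h libraries lay below both of 7 h, against 38.5% of all tested genes. Under library sizes alone 7 fell, with a median of −0.23. DESeq2 called 11 lower and 0 higher, and 0 were higher at an unadjusted p under 0.05 in edgeR. HOP1, a protein of the meiotic chromosome axis, peaked at 1097 and 1049 CPM at 4 h, was at 371 and 357 CPM at 7 h, and fell to 166 and 195 CPM at 9 h. The groups were well apart, and the log2 change was −1.0 ± 0.16 (edgeR adjusted p = 3.6e-05). NDJ1, which tethers telomeres in prophase, fell by −0.88 ± 0.17 (edgeR adjusted p = 0.000417), and DMC1, the meiotic recombinase, by −0.76 ± 0.13 (edgeR adjusted p = 0.000136). Without replicate 2 of 7 h 9 members fell, and without replicate 2 of 9 h 10.

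The URS1 core GGCGGC, searched the same way, was found in 19 of 27 early meiotic promoters (70.4%), 5.04% of all tested promoters, 7.91% of those of genes that fell and 4.39% of those of genes that rose. MSE cores were found in 2 of the 27. The windows below come from the 3 early genes with the largest falls that hold a URS1 core in this position. They are printed on the strand of the gene, and capitals mark a core on either strand. In DMC1 the capitals are the reverse complement of the core. The URS1 core overlapped an MSE core in 1 promoter of the genome set.
HOP1 (chrIX:226401-226460, plus strand): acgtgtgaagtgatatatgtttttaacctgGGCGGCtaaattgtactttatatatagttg
NDJ1 (chrXV:117515-117574, minus strand): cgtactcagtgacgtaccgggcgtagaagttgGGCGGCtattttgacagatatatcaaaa
DMC1 (chrV:548253-548312, plus strand): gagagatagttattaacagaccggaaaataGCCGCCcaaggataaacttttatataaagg

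RNAs for making ribosomes were higher at 9 h. Of 31 ribosome assembly genes 23 rose and 0 fell, with a median of 0.88; DESeq2 called 22 and 0, and 0 were lower at an unadjusted p under 0.05 in edgeR. Of the 31, 28 had both 9 h libraries above both of 7 h, against 26.6% of all tested genes. Without replicate 2 of 9 h 12 rose. NOP58, a core protein of box C/D snoRNPs, was at 242 and 262 CPM at 0 h, 29.7 and 23.4 CPM at 6 h, 96.3 and 60.9 CPM at 7 h, 160 and 138 CPM at 8 h and 213 and 234 CPM at 9 h. Its 9 h libraries lay above all of 7 h and 8 h and near the level at 0 h, and the log2 change was 1.52 ± 0.19 (edgeR adjusted p = 2.46e-06). NSR1, a nucleolin-like protein, rose from 157 and 124 CPM to 339 and 407 CPM (1.42 ± 0.17, edgeR adjusted p = 2.46e-06). NUG1, a GTPase of large subunit export, rose by 1.26 ± 0.20 (edgeR adjusted p = 5.23e-05).

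Of 138 ribosomal protein genes 75 rose and 1 fell, with a median of 0.72. Both 9 h libraries lay above both of 7 h for 112 of them, against 26.6% of all tested genes. The number that rose was 48 without replicate 2 of 7 h and 36 without replicate 2 of 9 h, and 107 under library sizes alone. The largest rises were RPL41A, from 69.6 and 70.3 CPM to 259 and 436 CPM (2.36 ± 0.27, edgeR adjusted p = 2.79e-05), and RPS10A, from 19.0 and 22.9 CPM to 66.2 and 116 CPM (2.20 ± 0.29). RPL15B was the exception, falling from 132 and 147 CPM to 74.5 and 82.7 CPM (−0.81 ± 0.17, edgeR adjusted p = 0.000776). These genes have near-identical copies between which reads could be split, so the values of single copies are uncertain. Translation factors were mixed, with 6 of 18 higher and 3 lower and a median of 0.09; 1 was lower without replicate 2 of 9 h. The shares over all tested genes were 11.6% higher and 18.0% lower. YEF3, elongation factor 3, rose by 0.91 ± 0.16, and GCN4, the activator of amino acid synthesis genes, fell by −0.82 ± 0.13.

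PAC (GATGAG) and RRPE (AAAATTT), elements known from ribosome assembly promoters, were searched on both strands after the values were seen. Among 31 ribosome assembly promoters 30 held PAC and 30 held RRPE (96.8% each), and 29 held both (93.5%). Among all tested promoters 19.9% held PAC, 23.8% RRPE and 8.04% both. RRPE was nearly as frequent in the translation factor list, whose changes were mixed: 15 of 18 promoters held it (83.3%), and 4 held PAC (22.2%). Of the promoters of genes that rose 31.4% held PAC and 40.4% RRPE, and of those that fell 13.6% and 18.4%. PAC and RRPE matches overlapped in 0 promoters, and RRPE overlapped an MSE core in 62 and PAC in 23. The windows of the 3 assembly genes with the largest rises that hold both elements are given below, with all matches in capitals.
NOP58 (chrXV:898455-898514, minus strand): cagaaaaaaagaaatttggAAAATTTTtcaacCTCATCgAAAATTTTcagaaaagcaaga
NSR1 (chrVII:807810-807869, minus strand): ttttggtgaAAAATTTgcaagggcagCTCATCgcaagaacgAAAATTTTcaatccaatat
NUG1 (chrV:162576-162635, plus strand): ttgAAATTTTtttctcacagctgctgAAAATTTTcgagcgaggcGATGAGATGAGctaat

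**Figure D3:**
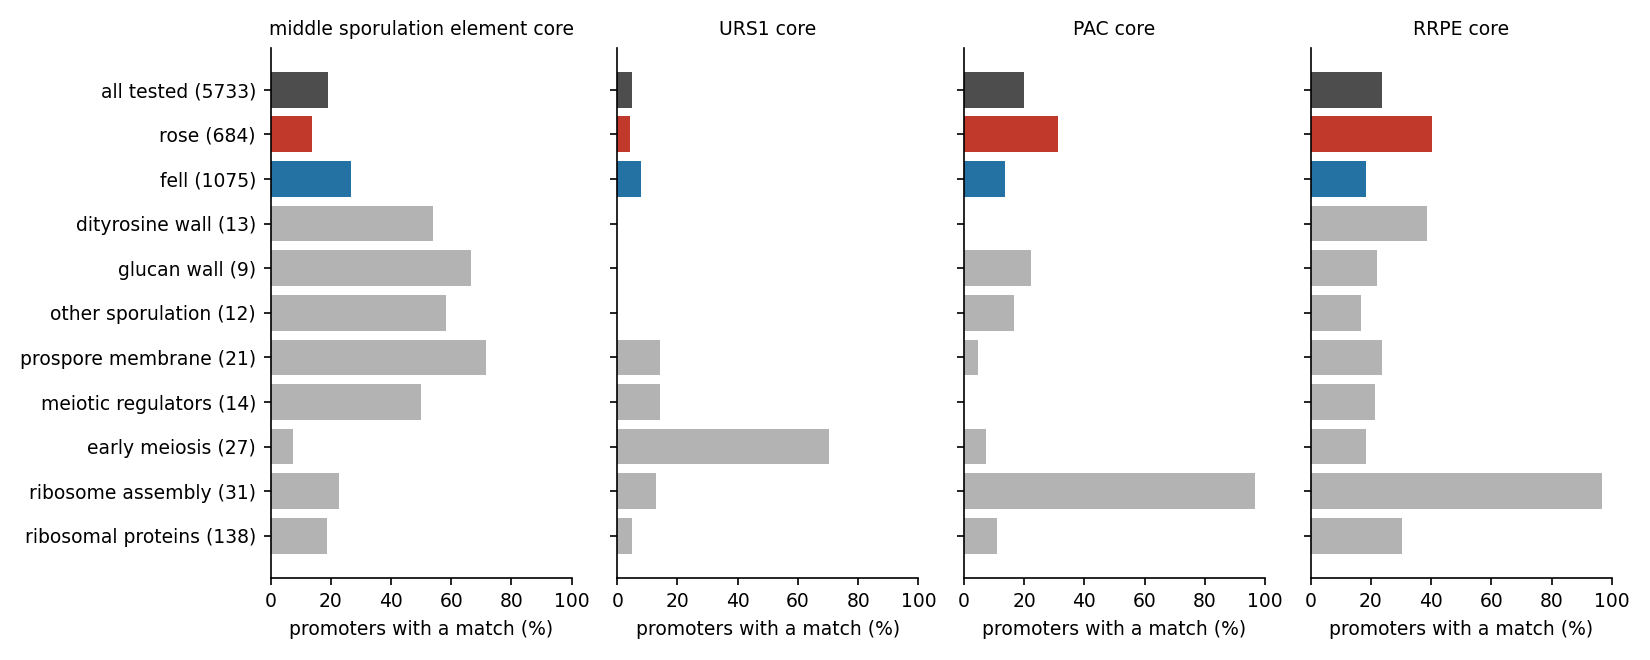
Percentage of promoters (x axis) with at least 1 match to 4 elements, for all tested genes, genes that rose, genes that fell and 8 lists (y axis, number of promoters in brackets). MSE cores are most frequent in the prospore membrane list (71.4%), URS1 in the early meiosis list (70.4%) and PAC and RRPE in the ribosome assembly list (96.8% each).

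Among genes with a mean of at least 20 CPM at the higher hour and no overlap between 7 h and 9 h, the largest rise was outside the lists. DPC7 (chrXI:315954-316175, plus strand, 1 coding exon) was at 121 and 107 CPM at 7 h, 510 and 454 CPM at 8 h and 729 and 954 CPM at 9 h. The 3 hours were fully separate, and the log2 change was 2.90 ± 0.17 (edgeR adjusted p = 4.8e-11), with tags rising from 21 and 63 to 127 and 273 (2.79 ± 0.34, edgeR adjusted p = 1.66e-07). PHO84, the high-affinity phosphate transporter, rose from 128 and 97.8 CPM to 436 and 326 CPM (1.73 ± 0.34, edgeR adjusted p = 0.00289). CHA1, the serine and threonine deaminase, rose from 55.0 and 43.9 CPM to 127 and 171 CPM (1.63 ± 0.18, edgeR adjusted p = 8.69e-07).

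Genes of dormancy and storage carbohydrates were among those that rose, though the lists were mixed. For scale, 11.6% of all tested genes rose and 18.0% fell. SIP18, a hydrophilin linked to desiccation tolerance, rose from 671 and 680 CPM to 1829 and 2308 CPM at 8 h and 2048 and 3085 CPM at 9 h (1.93 ± 0.18, edgeR adjusted p = 1.11e-07). All 9 h and 8 h values lay above those of 7 h, and tags rose from 54 and 114 to 167 and 354 (2.11 ± 0.33). STF2, another hydrophilin-like protein, rose by 1.43 ± 0.38, a call lost without replicate 2 of 7 h or either of 9 h. HSP26, a small heat shock protein, fell by −0.60 ± 0.22, a call lost without any 1 of the 4 libraries. Of 26 stress and dormancy genes 7 rose and 3 fell, with a median of 0.14, and 4 rose without replicate 1 of 9 h; 0 fell without replicate 2 of 7 h or replicate 1 of 9 h, and 1 without replicate 2 of 9 h.

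Of 17 trehalose and glycogen genes 7 rose and 3 fell, with a median of 0.16. Among all tested genes 11.6% rose and 18.0% fell. TPS2, the trehalose-phosphate phosphatase, rose from 156 and 132 CPM to 287 and 301 CPM (1.03 ± 0.14, edgeR adjusted p = 9.02e-06), and GLC3, the glycogen branching enzyme, by 0.95 ± 0.12 (edgeR adjusted p = 4.65e-06). GAC1, which targets protein phosphatase to glycogen synthase, fell by −1.25 ± 0.21, and UGP1, which makes UDP-glucose, by −0.89 ± 0.16. The stress response element AGGGG was also searched after the values were seen. It was found in 16 of 26 stress promoters (61.5%) and 9 of 17 trehalose and glycogen promoters (52.9%), against 21.8% of all tested promoters. It was not particular to lists with rises. The vacuole and autophagy list, where 5 fell and 1 rose, held it in 10 of 18 promoters (55.6%). The histone list, where 5 fell and 0 rose, held it in 4 of 10. Of the promoters of genes that rose 25.1% held it, and of those that fell 20.5%.

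HXK1 and HXT5 rose, and some genes of acetate use fell. Over all tested genes 11.6% rose and 18.0% fell. HXK1, a hexokinase, rose from 147 and 129 CPM to 367 and 359 CPM (1.40 ± 0.13, edgeR adjusted p = 2.16e-08), and HXT5, a hexose transporter of slow-growing cells, from 1333 and 1016 CPM to 2337 and 2209 CPM (0.95 ± 0.17, edgeR adjusted p = 0.00017). Neither pair of groups overlapped. Of 19 glycolytic genes 4 rose and 2 fell, with a median of 0.26, and 2 rose without replicate 1 of 7 h or replicate 1 of 9 h; PFK1, a phosphofructokinase subunit, fell by −1.0 ± 0.21. Of 18 hexose transport genes 1 rose and 2 fell, with a median of −0.13 that became 0.19 under library sizes alone; 0 fell without replicate 2 of 7 h or either of 9 h. Of 16 genes of acetate use and gluconeogenesis 8 fell and 1 rose (median −0.35), and fewer fell without replicate 1 of 9 h. Under library sizes alone 3 fell and 2 rose, with a median of −0.03, so the direction of this list rests on the scaling. ADY2, the acetate transporter, fell from 24160 and 31080 CPM to 12900 and 15900 CPM (−0.94 ± 0.13, edgeR adjusted p = 2.06e-05). ACS1, an acetyl-CoA synthetase, fell from 4106 and 4332 CPM to 2086 and 2365 CPM (−0.92 ± 0.11, edgeR adjusted p = 2.79e-06).

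Nitrogen use, proteasome and histone genes were lower at 9 h under TMM scaling. With that scaling 18.0% of all tested genes fell and 11.6% rose. GDH1, the NADP-dependent glutamate dehydrogenase, fell from 242 and 245 CPM to 157 and 152 CPM at 8 h and 82.8 and 85.7 CPM at 9 h (−1.53 ± 0.16, edgeR adjusted p = 4.48e-07), and GAP1, the general amino acid permease, by −1.06 ± 0.17. Replicates of GDH1 lay close together at each hour. In the nitrogen list 10 of 18 fell and 0 rose, with a median of −0.63. DESeq2 called 8 and 0, and 0 were higher at an unadjusted p under 0.05 in edgeR. Under library sizes alone 7 fell and 2 rose, with a median of −0.31. In the proteasome list 20 of 32 fell and 0 rose (median −0.49). DESeq2 also called 20 and 0, and 0 were higher at an unadjusted p under 0.05 in edgeR. Library sizes alone left 7, with a median of −0.17. PRE7, a core particle subunit, fell by −0.88 ± 0.15 (edgeR adjusted p = 0.000108), and PRE4, another, by −0.85 ± 0.14, with tags falling by −1.68 ± 0.36. In the histone list 5 of 10 fell, with a median of −0.38. Under library sizes alone 3 fell, with a median of −0.06, so the fall of the histone list as a whole rests on the scaling. Fewer also fell without replicate 2 of 7 h or either replicate of 9 h. HHO1, linker histone, fell from 548 and 611 CPM to 282 and 284 CPM (−1.03 ± 0.14, edgeR adjusted p = 4.65e-06).

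Other cellular lists shifted less, where 18.0% of all tested genes fell and 11.6% rose. In the vacuole and autophagy list 5 of 18 fell and 1 rose (median −0.10); without replicate 2 of 7 h 1 fell, and without replicate 1 of 9 h 2. ATG1, the autophagy kinase, fell by −0.75 ± 0.22 and its tags from 685 and 782 to 96 and 200 (−2.01 ± 0.35, edgeR adjusted p = 0.000176); its RNA-seq call was lost without replicate 2 of 7 h or replicate 1 of 9 h. In the respiration list 3 of 22 fell, with a median of −0.12; 5 fell without replicate 1 of 7 h and 1 without replicate 1 of 9 h. In the mRNA decay and tail list 6 of 27 fell and 3 rose (median −0.08), near the 18.0% and 11.6% of all tested genes; 1 rose without replicate 2 of 7 h or replicate 2 of 9 h. The medians of these 3 lists became positive under library sizes alone, at 0.22, 0.19 and 0.23.

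The decay factors at the centre of the study were also measured. PAB1, the poly(A)-binding protein, fell from 901 and 1033 CPM to 530 and 646 CPM (−0.71 ± 0.14, edgeR adjusted p = 0.000312). POP2, a deadenylase, was at 79.8 and 71.8 CPM at 7 h and 102 and 110 CPM at 9 h (0.49 ± 0.17, edgeR adjusted p = 0.0295), a rise lost without replicate 2 of 7 h or either of 9 h. CCR4, the other deadenylase, changed by 0.47 ± 0.20 and XRN1, the cytoplasmic 5′ exonuclease, by −0.04 ± 0.14; neither passed (edgeR adjusted p = 0.0821 and 0.849). Of the 8 genes of the mitochondrial genome 6 were tested and 0 passed in edgeR or DESeq2 (0 at an unadjusted p under 0.05 in edgeR). COX1 was at 159 and 81.3 CPM at 7 h and 251 and 132 CPM at 9 h; the groups overlap, and it shares positions with intron-encoded genes.

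Among genes with a mean of at least 20 CPM at the higher hour and no overlap between 7 h and 9 h, the largest falls were in genes of low level. BET5, a TRAPP complex subunit, went from 26.8 and 39.4 CPM to 5.5 and 9.0 CPM (−2.08 ± 0.45, edgeR adjusted p = 0.000993), and BIO3, a biotin synthesis enzyme, from 36.5 and 42.4 CPM to 8.3 and 12 CPM (−1.88 ± 0.42, edgeR adjusted p = 0.00115). At the depth of 9 h such values rest on few reads. Among all tested genes 18.0% fell. Cell cycle genes of growing cells also fell: CLB2, the main mitotic cyclin, by −1.76 ± 0.46 and SWI5, a transcription factor of mitotic exit, by −1.50 ± 0.36, each lost without replicate 2 of 9 h. The vegetative list had 3 of 10 falling, with a median of −0.76, and 0 without replicate 2 of 9 h.

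The poly(A) tag libraries give a second view of abundance, from poly(A)-selected rather than ribodepleted RNA. Of 3955 genes tested, tags rose for 45 (1.14%) and fell for 60 (1.52%) from 7 h to 9 h (edgeR, adjusted p under 0.05). Leaving out 1 library in turn left 19 to 25 and 12 to 47. Of the genes that rose in RNA-seq 541 were tested in tags: 390 had the same sign, 31 also rose and 7 fell. Of those that fell 928 were tested: 702 had the same sign, 27 also fell and 1 rose. Across 3938 genes the log2 changes of both assays had a Spearman correlation of 0.372, a description across genes, which are not independent.

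Some genes parted between the assays. The difference between both changes passed for 35 genes with RNA above tags (0.889%) and 34 with RNA below tags (0.863%) of 3938 tested (edgeR interaction term, adjusted p under 0.05). RGS2, a negative regulator of glucose-induced cAMP signalling, had 108 and 125 tags at 7 h, 9 and 28 at 8 h and 2 and 8 at 9 h, while its RNA-seq level was 68.1 and 85.3 CPM at 7 h and 66.2 and 58.6 CPM at 9 h. The tags lost nearly all of their share while the RNA-seq groups stayed close, and the difference was 3.96 ± 0.51 log2 units (edgeR adjusted p = 1.23e-06). PHB1, a prohibitin, had 73 and 126 tags at 7 h and 7 and 29 at 9 h with RNA-seq at 165 and 181 CPM and 287 and 207 CPM (difference 2.66 ± 0.35, edgeR adjusted p = 1.3e-06). PNO1, of small subunit assembly, differed by 2.82 ± 0.41, a call lost without replicate 2 of 9 h.

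PRE3, a catalytic proteasome subunit, did the reverse. Its tags rose from 12 and 40 at 7 h, over 15 and 59 at 8 h, to 61 and 156 at 9 h, while RNA-seq gave 162 and 182 CPM at 7 h and 141 and 138 CPM at 9 h. The difference was −2.77 ± 0.34 (edgeR adjusted p = 9.22e-07). RGS2, PHB1 and PRE3 passed in all 7 alternatives run for this test. DEP1, of a histone deacetylase complex, and ERG2, a sterol isomerase, also differed in this direction, by −2.86 ± 0.57 and −2.67 ± 0.60, each lost without replicate 2 of 7 h or of 9 h. CBS1 and TRP4 (RNA above tags) and CDC13 and SSQ1 (RNA below tags) complete the 5 largest in each direction; each had under 40 tags in every library of 7 h and 9 h and was lost without at least 2 of the 4.

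**Figure D4:**
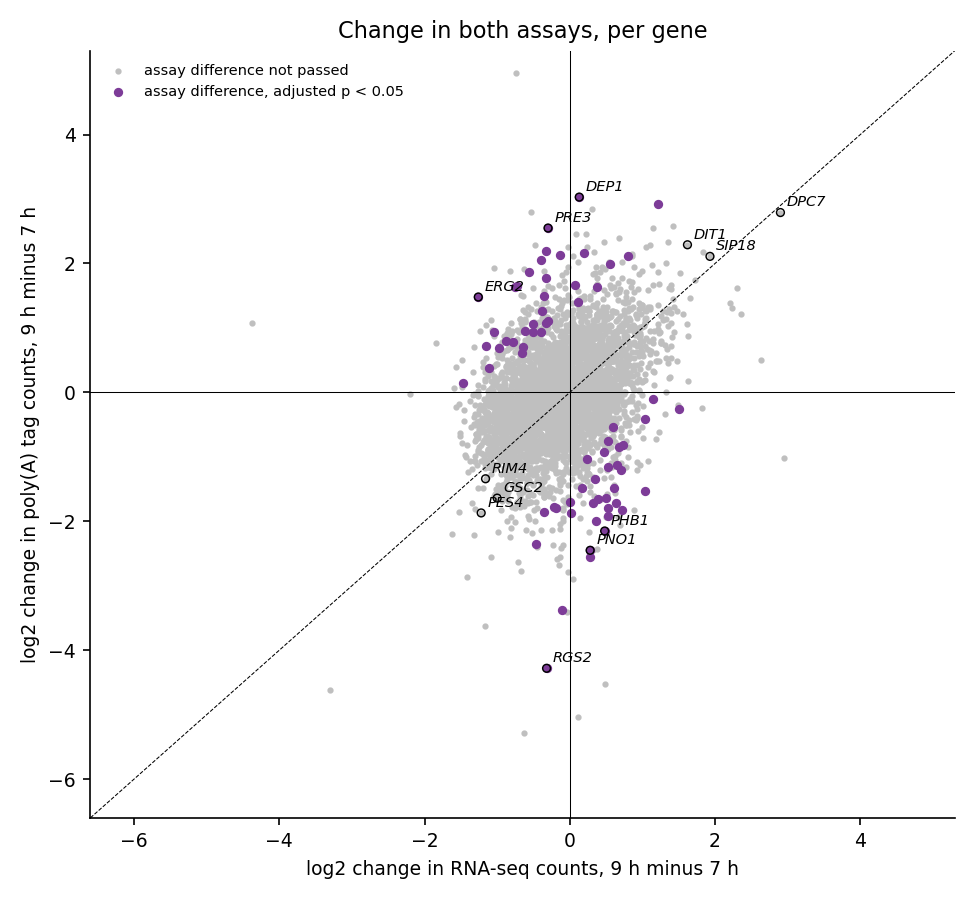
Log2 change from 7 h to 9 h in RNA-seq counts (x axis) and in poly(A) tag counts (y axis), 1 point per gene, purple where the difference between the assays passed an adjusted p of 0.05. RGS2 lies far below the cloud and PRE3 above it, while DIT1, DPC7 and SIP18 are high in both.

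Tail lengths are the deposited mean per gene and library in nucleotides (nt), used where at least 20 tags support them, which left 587 genes with values in all 4 libraries. Over the 534 genes measured at all 3 hours, the library medians were 18.3 and 19.8 nt at 7 h, 17.8 and 18.6 nt at 8 h, and 18.7 and 21.1 nt at 9 h. The 9 h pair was the widest apart, and replicate 1 of 9 h lay within the range of 7 h. Of the 587 genes 382 had a longer and 205 a shorter mean tail at 9 h, with a median difference of 0.819 nt and a median SE of 2.55 nt. No gene passed in limma in either direction (0.0% longer and 0.0% shorter; smallest adjusted p 0.258), while 31 had an unadjusted p under 0.05. With the 4 libraries alone limma called 1 longer and 0 shorter. Both 9 h libraries lay above both of 7 h for 170 genes (29.0%) and below for 59 (10.1%).

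The genes with the smallest p had differences of several nt that did not pass. PEX30, which shapes peroxisome-forming membrane, had tails of 17.8 and 18.1 nt at 7 h, 17.5 and 17.6 nt at 8 h and 31.6 and 25.5 nt at 9 h, on 21 and 71 tags at 9 h. Both 9 h values were above all others, but the difference of 10.63 ± 2.61 nt had an adjusted p of 0.258 (limma). DPA10 had 17.2 and 20.7 nt at 7 h and 24.3 and 24.6 nt at 9 h (5.52 ± 1.42 nt, limma adjusted p = 0.258). MBF1, a transcriptional coactivator, had 29.5 and 31.8 nt at 7 h, 24.3 and 27.4 nt at 8 h and 23.6 and 23.9 nt at 9 h (−6.89 ± 1.81 nt, limma adjusted p = 0.258). CLG1 had 21.4 and 21.3 nt at 7 h and 17.7 and 17.2 nt at 9 h, with 17.7 and 17.5 nt at 8 h (−3.94 ± 1.71 nt, limma adjusted p = 0.844).

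Late spore genes did not stand out by a passed test either. DIT1 tails were 26.9 and 26.8 nt at 7 h, 24.4 and 24.4 nt at 8 h and 26.2 and 32.3 nt at 9 h. The 9 h libraries lay on both sides of the 7 h values. DIT2 tails were 11.6 and 12.9 nt at 7 h, 18.9 and 17.3 nt at 8 h, and 16.4 and 19.5 nt at 9 h, longer in both later pairs. SPS4 tails were 20.3 and 26.1 nt at 7 h and 21.9 and 32.4 nt at 9 h, with replicate 2 the longer at both hours. Against the 382 of 587 measured genes with longer tails, 9 of the dityrosine genes had tails measured, 6 of them longer, with a median difference of 2.36 nt; of the glucan genes 7 of 8 were longer, with a median of 1.34 nt. Of the stress genes 10 of 11 were longer (median 1.38 nt) and of the histones 4 of 9 (median −0.34 nt).

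Ranked over all measured genes, tail differences did not follow the RNA changes, but genes called as rising had longer tails more often than those called as falling. Among genes that rose in RNA-seq 88 of 107 measured had a longer mean tail at 9 h, with a median difference of 1.85 nt. Among those that fell it was 116 of 198, with a median of 0.449 nt. Of all measured genes it was 382 of 587, with a median of 0.819 nt. The difference between these groups was not tested. Across 586 genes the Spearman correlation of tail difference and RNA-seq change was −0.027, and with tag change −0.126, both descriptions across genes that share the same libraries.

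**Figure D5:**
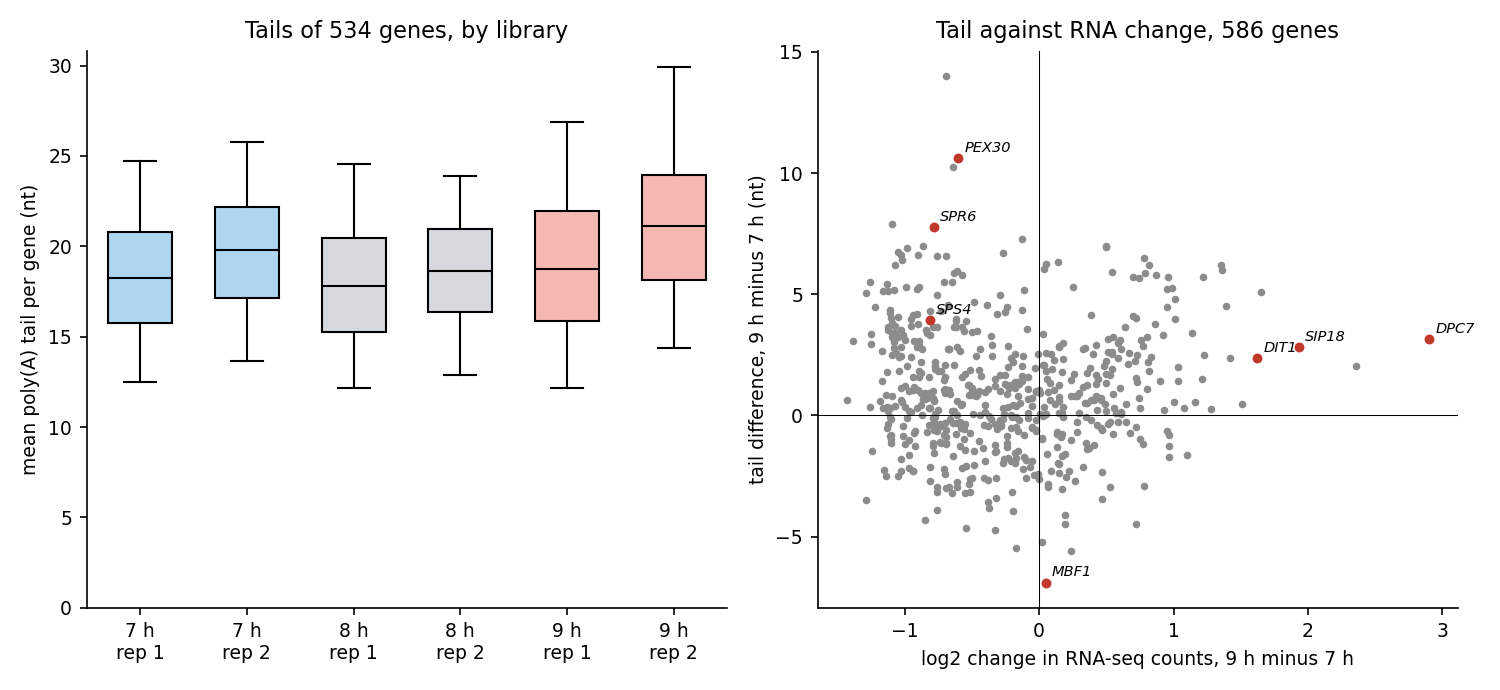
Mean poly(A) tail per gene in nt for the genes measured at 3 hours, by library (left; boxes span the quartiles, whiskers the 5th to 95th percentiles), and the tail difference between 9 h and 7 h in nt against the log2 change in RNA-seq counts (right, 1 point per gene). The library medians span 17.8 to 21.1 nt, replicate 2 lies above replicate 1 at every hour, and the right panel has a Spearman correlation of −0.027.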

How the data were processed

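Per the submitters' processing notes, reads were aligned with STAR 2.5.3a and handled with bedtools (2.26.0 for the tag libraries) on build sacCer3. The authors deposited raw counts per gene for RNA-seq, poly(A) tag counts per gene, and a mean tail length per gene in nt (another unit, not scaled between libraries). Per the labels' protocols, RNA-seq RNA was ribodepleted and tag RNA poly(A)-selected. No source used here states whether counting used strand, how tails were called or whether duplicates were removed.

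Counts were fitted with edgeR 4.0.16 (R 4.3.3; TMM, filterByExpr, quasi-likelihood, group means over the 20 libraries of an assay, or 40 for the assay difference), and tails of at least 20 tags with limma 3.58.1 (robust, trended by mean log2 tags); calls are at a Benjamini-Hochberg adjusted p under 0.05. Errors are SE. The scripts were tested on simulated data. Groups came from the titles. Alternatives were RLE factors, library sizes alone, no filter, DESeq2 1.42.0, the 4 compared libraries alone, a replicate block, other tag minimums, and each library left out. Fits without 3 h or with 6 h to 9 h alone were added after the data were seen. The members and lists were chosen with earlier results of these data known. Named genes are the 10 largest changes in each direction with at least 20 CPM and no overlap, the 2 largest in each direction in each list, the smallest tail p values, the 5 largest assay differences, and 19 genes given whatever their values. NUG1, ADY4, DMC1, SPO14, CHS7, LDS1, PPN1 and QRI1 were named after their values were seen. Of 6692 genes 6008 were matched to the reference, and promoter sequences are the reference's.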

Additional observations from a re-analysis of the deposited data

How the results depend on the processing

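Among the genes named by rule, no called RNA-seq change from 7 h to 9 h and no called assay difference reversed direction under the alternatives run. Genes named after their values were seen, tag changes of single genes and the steps to and from 8 h were not followed in this way. Sign changed in 27 results that passed neither as reported nor under the alternative, 7 in RNA-seq and 20 in tails, 14 of the tails without 9 h replicate 2. Under library sizes alone CLG1 became 0.12, CBS1 0.20, PRE3 0.01 and XRN1 0.27. XRN1 was 0.06 with the 4 libraries alone, and with 6 h to 9 h alone it was 0.07 and CBS1 0.0. With 1 library left out RNA ranges were −0.03 to 0.11 (MBF1), −0.28 to 0.09 (CBS1), −0.03 to 0.27 (DEP1), −1.14 to 0.04 (CDC13) and −0.14 to 0.02 (XRN1). With each library centred on its median, tail differences in nt became −0.70 (FKS3), −0.59 (RIM4), −0.04 (IME2), −0.21 (PRE4) and −0.35 (NDT80). With 1 library left out they were −0.10 to 0.47 (FKS3), −1.07 to 1.67 (RIM4), −0.25 to 1.93 (IME2), −0.08 to 1.96 (GCN4), −0.72 to 3.16 (PFK1), −2.0 to 5.78 (TDH2), −0.22 to 2.37 (ADY2), −1.50 to 0.23 (ACS1), −0.76 to 0.21 (COX1), −0.05 to 4.06 (TPS2), −1.47 to 0.49 (ATG1), −4.46 to 5.81 (PRE4), −3.53 to 4.61 (NDT80), −1.88 to 8.68 (SMK1), −1.47 to 9.57 (CLB1), −0.67 to 5.39 (DIT1), −1.34 to 9.18 (SPS4), −1.68 to 3.94 (CDA1), −0.36 to 3.19 (CDA2) and −0.52 to 2.63 (PAB1). Of 113 named genes in RNA-seq 93 passed, 48 of them under all 12 alternatives and 45 not; of the 20 that did not pass, 10 passed under some alternative. Calls lost numbered 4 without 7 h replicate 1, 25 without 7 h replicate 2, 23 without 9 h replicate 1 and 33 without 9 h replicate 2; the 9 h libraries are the shallowest. RNA-seq from 7 h to 9 h gave 1481 higher and 464 lower under library sizes alone, and 352 to 685 and 644 to 1141 with 1 library left out. From 7 h to 8 h it gave 792 and 113 under library sizes alone, 294 higher in DESeq2, and 28 to 422 and 6 to 493 with 1 library left out. From 8 h to 9 h higher calls were 5 in DESeq2, 12 with the block, 5 with 6 h to 9 h alone and 0 to 6 with 1 library left out; lower calls were 1 with RLE factors, 0 under library sizes alone, 5 without a filter, 16 in DESeq2, 53 with the block, 5 without 3 h, 27 with 6 h to 9 h alone and 0 to 70 with 1 library left out. Tail calls were 1 longer with the 4 libraries alone, and 5 longer and 2 shorter with the replicate block. Tag calls higher were 69 under library sizes alone, 85 with the 4 libraries alone, 114 with the block and 19 to 25 with 1 library left out; lower, 165 with the block and 12 to 47. Assay differences with RNA above tags were 64 with the block and 8 to 25 with 1 library left out; with RNA below tags, 19 under library sizes alone and 5 to 21. The replicate numbers were not taken as pairs: the labels do not say that a number marks a shared culture, and each hour has only 2 numbers. Deviations of same-numbered libraries correlated, for 7 h with 8 h, 7 h with 9 h and 8 h with 9 h, at 0.27, 0.113 and 0.18 in RNA-seq, 0.12, 0.125 and 0.106 in tags, and 0.098, 0.047 and −0.16 in tails. These correlations run across genes, so they do not see an offset shared by all genes of a library. Median tails were longer in replicate 2 than in replicate 1 at 7 h, 8 h and 9 h. The cause of the shifts between alternatives was not tested. Counts of 9 h limit genes of low level.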
